A study of Mus musculus with 13 samples.

Results

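Chromatin modifiers and remodellers were examined in 3 sorted populations of mouse splenic CD4 T cells. The genes were chosen by symbol, and the rule used no measured value, though earlier results of these data were known. It took every gene with a symbol beginning with Kdm, Hdac or Chd and a digit, or with Dnmt1, Dnmt3, Smarc or Setd. It also took Ezh1, Ezh2, Tet1, Tet2, Tet3 and the sirtuins Sirt1 to Sirt7. This gave 77 of 18649 genes with 76 distinct symbols, since Hdac4 is listed under 2 gene IDs. They comprise 15 lysine demethylases (Kdm), 12 histone deacetylase entries (Hdac), 7 sirtuins, 3 DNA methyltransferases, 3 TET dioxygenases, 10 chromodomain helicases (Chd), 12 Smarc genes, 2 Ezh genes, 11 Setd genes and 2 pseudogenes. Of these, 76 passed the minimum mean level of 10 for testing, and the pseudogene Dnmt3l-ps1 did not.

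The study sorted CD4 T cells from mouse spleen by a GFP reporter of Foxp3, the lineage factor of regulatory T cells, and by surface PD-1, an inhibitory receptor. PD1hi cells were high for PD-1 and lacked the reporter (3 libraries), Treg carried the reporter and lacked PD-1 (5 libraries), and Tconv, the conventional cells, lacked both (5 libraries). Each of experiments 3, 5 and 6 held all 3 populations, and 4 libraries were titled a replicate of another of the same experiment and population. No allele or agent besides the reporter is named, and no source used here states the strain, the age or how many mice a sample holds. The spread behind each p-value is therefore that between these samples and may be technical. Each population was defined by surface PD-1 and the reporter alone and can hold several cell types or states. In bulk RNA of this kind, fewer cells of a type and less RNA per cell cannot be told apart.

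These enzymes write, erase or read chemical marks on DNA and histones, or use ATP to move nucleosomes. DNA methyltransferases add methyl groups to cytosine and TET dioxygenases oxidise them, Ezh1 and Ezh2 place the repressive methyl mark of Polycomb and Kdm6a and Kdm6b remove it, deacetylases take acetyl groups from histones and other proteins, and the Chd and Smarc ATPases remodel nucleosomes. In CD4 T cells they are known for holding lineage genes such as Foxp3 and the cytokine genes open or silent, with Ezh2 and Tet2 among the best studied.

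The libraries held 15971126 to 24216463 reads in genes. Levels are scaled counts (reads divided by a size factor of the library), with 1 value per experiment and population, the mean where there were 2 libraries, so that n is 3 in each population. Levels of different genes are not corrected for transcript length and are not compared with each other. Differences are log2 fold changes ± SE (n = 3 per population) from limma, called at an adjusted p under 0.05, and PD1hi is part of 2 of the 3 comparisons, Treg and Tconv likewise, so the comparisons share samples. Pdcd1 was highest in PD1hi and Foxp3 in Treg, and Cd3e and Cd4 were present in every population (means 23539.9 and 17160.5 or more). Among the Treg libraries the second of experiment 3 stood apart, and among the PD1hi libraries that of experiment 6, in the genes described here as well. Lists of CD4 T cell genes (3 of 5 higher in PD1hi than in Tconv, 4 higher than in Treg, 2 lower in Treg than in Tconv), myeloid genes (sum at most 670.3) and erythroid genes (at most 67.4; 0 of 2 called by limma or voom, 0 at an unadjusted p under 0.05) were also read. Of 6 tested myeloid genes, Itgam was lower in PD1hi than in Tconv and in Treg, and 0 were called in Treg against Tconv (0 at an unadjusted p under 0.05, 0 with voom).

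PD1hi differed from Tconv in 19 of the 76 tested genes (25%), against 26.1% of all 14177 tested genes: 12 were higher (14.2% of all tested genes were) and 7 lower (11.9%). Against Treg, PD1hi differed in 14 (18.4%), against 16.5% of all genes: 11 higher (background 8.16%) and 3 lower (8.39%). Treg differed from Tconv in 4 (5.26%), against 14.4% of all genes: Hdac9 and Kdm2b higher (8.73%), Chd7 and Tet1 lower (5.66%). The shares of 26.1%, 16.5% and 14.4% of all genes are also the background of each class or list counted below. In every call the 3 values of a population did not overlap those of the other, which comes from the tested values and adds no support to the calls. The median log2 fold change of the 76 genes was 0.14, 0.08 and 0.00 in the 3 comparisons, and over all genes -0.00, -0.01 and 0.01. Most differences were small: the median absolute log2 fold change was 0.33, 0.27 and 0.19, below the 0.41, 0.32 and 0.29 of all genes. Calls of at least 2-fold numbered 4 for PD1hi against Tconv (Tet1, Tet3, Dnmt3b and Hdac9), 3 for PD1hi against Treg (Tet1, Hdac5 and Hdac9) and 3 for Treg against Tconv (Tet1, Chd7 and Hdac9). Among all 14177 tested genes, 16.36%, 10.95% and 9.32% were such calls, in each comparison a larger share than among the 76 genes. All genes were not matched to the 76 for level in any of these comparisons.

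These counts moved when single values or libraries were left out. Where these were of the population not compared, the fold changes stayed the same and only the test changed. Without PD1hi of experiment 6, the genes lower in PD1hi than in Treg numbered 7 instead of 3, without the second Treg library of experiment 3 they numbered 5, and without both 9. The 11 genes higher than in Treg numbered 4 without PD1hi of experiment 5, 7 without Tconv of experiment 6, and 6, 3 and 6 without Treg of experiments 3, 5 and 6. Those lower in Treg than in Tconv numbered 5 instead of 2 without PD1hi of experiment 6 or without both libraries that stood apart, and 1 without Tconv of experiment 3, Tconv of experiment 6 or Treg of experiment 5. Those higher in Treg numbered 1 instead of 2 without Tconv of experiment 3 or 6 or Treg of experiment 5 or 6, and 3 without PD1hi of experiment 6. With library totals set equal, the median of all genes in PD1hi against Tconv shifted by 0.143 and 20 genes were called higher (the 12 and Chd1, Dnmt3a, Hdac4 under its first ID, Hdac5, Kdm6a, Setd4, Smarca5 and Smarca5-ps) and 6 lower (76.9% of calls higher, against 63.2%; 72.7% with equal upper quartiles).

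**Figure D1:**
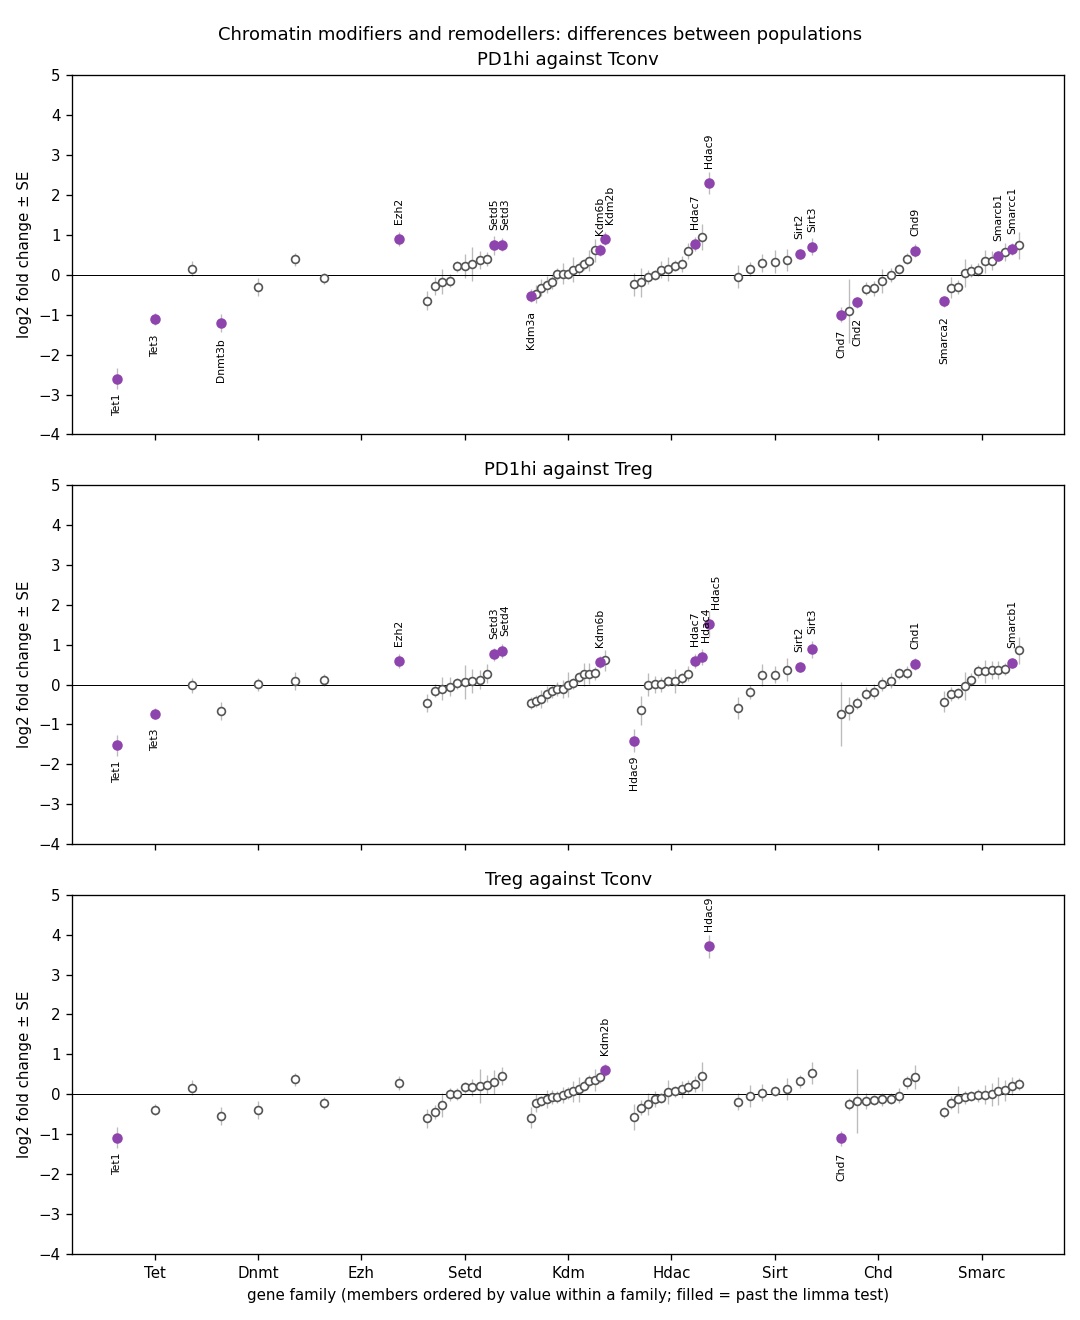
Log2 fold change ± SE (y axis) of the 75 tested genes that are not pseudogenes, by family (x axis), in PD1hi against Tconv, PD1hi against Treg and Treg against Tconv; filled points passed the test and carry their symbol. Most points lie near 0, and Tet1, Tet3, Dnmt3b, Chd7, Hdac9 and Hdac5 lie farthest out among the called genes.

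The TET dioxygenases, which oxidise methylcytosine and so start its removal, held the largest fall in PD1hi against Tconv among the 76 genes. Tet1 (ENSMUSG00000047146) was at 224, 147 and 107 in PD1hi, 452, 369.6 and 499 in Treg and 1019.8, 748 and 1052 in Tconv, in the order of experiments 3, 5 and 6 used throughout. The populations did not overlap, with PD1hi lowest, Treg between and Tconv highest in each experiment. Tet1 fell by 2.61 ± 0.26 in PD1hi against Tconv (adjusted p = 1.82e-05) and by 1.52 ± 0.26 against Treg (adjusted p = 0.00157). It fell by 1.09 ± 0.26 in Treg against Tconv (adjusted p = 0.0149). The last call was lost without Tconv of experiment 3 or 6 or Treg of experiment 5 (adjusted p = 0.0663 to 0.0705), and the first 2 were kept in all 20 alternatives.

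Tet3 (ENSMUSG00000034832) was at 1012, 1045 and 1327 in PD1hi, 1934, 1667 and 1995 in Treg and 2414, 2372 and 2492 in Tconv. All 3 PD1hi values lay below all Treg values, and these below all Tconv values. The fall was -1.11 ± 0.14 in PD1hi against Tconv (adjusted p = 0.000116) and -0.73 ± 0.14 against Treg (adjusted p = 0.00351), and the difference of Treg from Tconv, -0.38 ± 0.14, did not pass (adjusted p = 0.108). It did pass without PD1hi of experiment 6 (0.0330), without both libraries that stood apart (0.0167), in a fit of the pair of populations alone (0.0414) and under duplicateCorrelation (0.0402). Tet2 (ENSMUSG00000040943), the family member mutated most often in blood cancers, was at 1582, 1715 and 1863 in PD1hi, 1345, 1852 and 2124 in Treg and 1357, 1516 and 1804 in Tconv. Its values overlapped in every comparison, with log2 fold changes of 0.15 ± 0.18, -0.02 ± 0.18 and 0.17 ± 0.18. Ratios of 2 genes were taken within each value. They do not depend on scaling where the value is a single library, and can depend on it where 2 libraries were averaged. The ratio of Tet1 to Tet2 averaged 0.0948 ± 0.0431 in PD1hi, 0.257 ± 0.0709 in Treg and 0.609 ± 0.131 in Tconv (SD, n = 3). That of Tet3 to Tet2 averaged 0.654 ± 0.0530, 1.09 ± 0.300 and 1.58 ± 0.199, with Treg of experiment 3 (1.44) above Tconv of experiment 6 (1.38).

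Of the DNA methyltransferases, only Dnmt3b was called, and in PD1hi against Tconv alone. Dnmt3b (ENSMUSG00000027478), which methylates new sites, was at 97.4, 84.9 and 109.8 in PD1hi, 166, 138 and 161 in Treg and 198, 226 and 255 in Tconv. PD1hi was lowest and Tconv highest in each experiment, with no overlap between populations. It fell by 1.21 ± 0.22 in PD1hi against Tconv (adjusted p = 0.00154). The other differences, -0.67 ± 0.22 for PD1hi against Treg and -0.54 ± 0.22 for Treg against Tconv, did not pass (adjusted p = 0.0624 and 0.144). The first of them passed without PD1hi of experiment 6 (adjusted p = 0.0406), without both libraries that stood apart (0.0463) and with all 13 libraries entered under duplicateCorrelation (0.0322). Dnmt3a, the other enzyme of new sites, was at 1718, 1833 and 2255 in PD1hi, 1838, 1702 and 2249 in Treg and 1366, 1447 and 1627 in Tconv. Dnmt1, which copies methylation after replication, was at 4038, 4498 and 2558 in PD1hi, 3095, 2904 and 4381 in Treg and 4437, 3877 and 5192 in Tconv. Dnmt3a in PD1hi and in Treg lay above all Tconv values, and those of Dnmt1 overlapped. Neither passed in any comparison: Dnmt3a differed by 0.38 ± 0.16, 0.00 ± 0.16 and 0.38 ± 0.16, and Dnmt1 by -0.31 ± 0.22, 0.08 ± 0.22 and -0.39 ± 0.22. In limma, 1 of the 3 methyltransferases had an unadjusted p under 0.05 in PD1hi against Treg and 2 in Treg against Tconv, and voom called 0 in either. Dnmt3a passed in Treg against Tconv without both libraries that stood apart (adjusted p = 0.0436), and in PD1hi against Tconv with equal library totals (0.0370). The ratio of Dnmt3b to Dnmt3a was 0.0506 ± 0.00543 in PD1hi, 0.0810 ± 0.00941 in Treg and 0.153 ± 0.00670 in Tconv.

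A list of CD8 T and NK genes was also higher in Tconv, where it summed to 1699 to 1858 scaled counts, against 338 to 570 in PD1hi and 326 to 555 in Treg. It consisted there mainly of Klrb1c (mean 984), Cd8b1 (424) and Klrd1 (336), whereas Cd8a was at 8.43, and 2 of its 4 tested genes were lower in PD1hi than in Tconv, 1 lower than in Treg and 2 lower in Treg than in Tconv. Its part in the lower Tet1, Tet3, Dnmt3b and Chd7 of PD1hi or Treg was not tested.

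Other genes of DNA methylation were taken from a list of 15 tested partners. In PD1hi against Tconv 3 rose and 0 fell, in PD1hi against Treg 1 rose and 0 fell, and in Treg against Tconv 1 rose and 0 fell. Cxxc5, a CXXC zinc finger protein of the family that binds unmethylated CpG, was at 815, 838 and 1137 in PD1hi, 20.6, 21.6 and 10.5 in Treg and 24.5, 28.3 and 18.9 in Tconv. It was high in PD1hi alone and rose by 5.22 ± 0.34 against Tconv (adjusted p = 7.04e-07) and by 5.69 ± 0.34 against Treg (adjusted p = 4.1e-07). Gadd45b, a stress-induced gene linked to active demethylation, was at 713, 895 and 828 in PD1hi, 519, 638 and 348 in Treg and 191, 303 and 118 in Tconv. It rose by 2.09 ± 0.32 in PD1hi and by 1.35 ± 0.32 in Treg, each against Tconv, and the Treg call was lost without Treg of experiment 5 (adjusted p = 0.06). Uhrf1, which brings Dnmt1 to replicating DNA, was at 883, 970.0 and 422 in PD1hi, 537, 529 and 537 in Treg and 374, 279 and 261 in Tconv. It rose by 1.24 ± 0.28 in PD1hi against Tconv (adjusted p = 0.00581), with PD1hi of experiment 6 below every Treg value.

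The promoters of Tet1, Tet3 and Dnmt3b, the genes of the DNA methylation families that fell in PD1hi, and of Ezh2, which rose, are shown as the 250 bases before the annotated start (RefSeq, GRCm38.p6, 5′ to 3′ on the gene's strand; 59 of the 76 symbols had an entry). Tet1 is shown at chr10:62887325-62887574 (minus strand), Tet3 at chr6:83441679-83441928 (minus strand), Dnmt3b at chr2:153649199-153649448 (plus strand) and Ezh2 at chr6:47595031-47595280 (minus strand). Capitals mark matches to GGGCGG and CCAAT on either strand.
Tet1: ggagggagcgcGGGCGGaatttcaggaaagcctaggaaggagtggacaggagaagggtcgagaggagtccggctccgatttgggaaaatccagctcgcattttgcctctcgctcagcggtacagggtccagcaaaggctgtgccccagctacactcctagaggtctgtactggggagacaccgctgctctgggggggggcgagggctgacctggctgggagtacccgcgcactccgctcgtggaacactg
Tet3: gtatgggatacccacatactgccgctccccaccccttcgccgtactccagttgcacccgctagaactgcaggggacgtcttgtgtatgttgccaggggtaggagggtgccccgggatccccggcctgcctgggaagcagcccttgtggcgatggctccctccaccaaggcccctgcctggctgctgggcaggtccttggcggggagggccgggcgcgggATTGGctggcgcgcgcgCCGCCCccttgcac
Dnmt3b: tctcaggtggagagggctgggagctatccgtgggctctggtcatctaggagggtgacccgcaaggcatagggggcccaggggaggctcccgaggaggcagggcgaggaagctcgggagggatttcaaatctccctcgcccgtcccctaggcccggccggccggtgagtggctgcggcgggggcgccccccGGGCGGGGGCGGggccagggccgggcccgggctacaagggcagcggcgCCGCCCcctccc
Ezh2: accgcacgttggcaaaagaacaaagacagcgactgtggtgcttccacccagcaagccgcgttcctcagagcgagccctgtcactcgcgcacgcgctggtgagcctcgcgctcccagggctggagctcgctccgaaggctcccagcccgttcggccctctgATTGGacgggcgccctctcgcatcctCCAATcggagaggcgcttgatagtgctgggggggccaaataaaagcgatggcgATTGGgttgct
GGGCGG, the core of the Sp1 motif, stands in the Tet1 (1 match), Tet3 (1) and Dnmt3b (3) windows and in 32.7% of all 32851 promoter windows of this length. CCAAT, the NF-Y motif, stands in the Ezh2 (3 matches) and Tet3 (1) windows and in 33.8% of all. None of the 4 windows holds CCGGAAG (an Ets motif, 6.91% of all), TATAAA (12.4%) or the E2F motifs TTTCGCGC (0.256%) and TTTGGCGC (0.417%), which says only that these letters are not in these windows. The windows hold 15, 17, 21 and 23 CpG in the order shown, against a median of 6 over all. Each motif was searched on both strands, no match to GGGCGG overlaps one to CCAAT, and a match is a description of the letters.

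**Figure D2:**
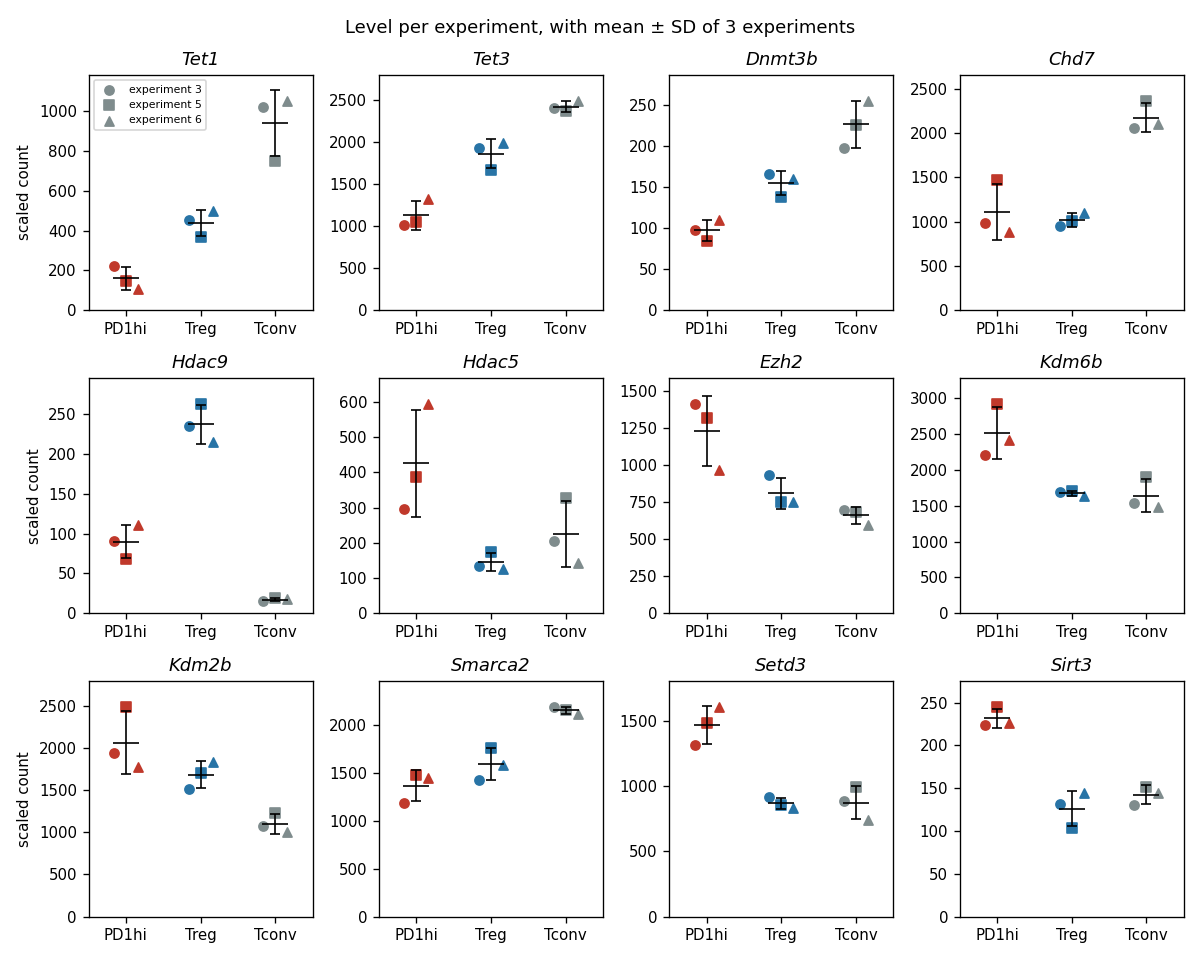
Scaled counts (y axis, from 0) of 12 genes in PD1hi, Treg and Tconv, with 1 point per experiment (circle, square and triangle for experiments 3, 5 and 6) and the mean ± SD of the 3. The 3 PD1hi points of Tet1 sit between 107 and 224 and those of Tconv between 748 and 1052, while Hdac9 is highest in Treg (214 to 262).

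Polycomb's methyltransferase Ezh2 was higher in PD1hi, while its paralogue Ezh1 did not pass in any comparison. Ezh2 (ENSMUSG00000029687) was at 1414, 1318 and 969 in PD1hi, 933, 751 and 749.9 in Treg and 700.1, 688 and 598 in Tconv. PD1hi was highest in each experiment and its lowest value lay above the highest of Treg. It rose by 0.88 ± 0.18 against Tconv (adjusted p = 0.00273) and by 0.59 ± 0.18 against Treg (adjusted p = 0.0383), and Treg differed from Tconv by 0.29 ± 0.18 (adjusted p = 0.356). The call against Treg was lost without PD1hi of experiment 3 or 5, Tconv of experiment 3, 5 or 6 or Treg of experiment 5 or 6, and in a fit of the 2 populations alone (adjusted p = 0.0526 to 0.132). Ezh1 was at 3785, 4155 and 3443 in PD1hi, 2907, 3568 and 4080.0 in Treg and 4032, 3885 and 4219.5 in Tconv, with differences of -0.10 ± 0.14, 0.12 ± 0.14 and -0.21 ± 0.14. The ratio of Ezh2 to Ezh1 averaged 0.324 ± 0.0466 in PD1hi, 0.238 ± 0.0726 in Treg and 0.164 ± 0.0194 in Tconv, and 0.210 in Treg without the second library of experiment 3. With that library, Treg of experiment 3 (0.321) lay within the PD1hi range of 0.281 to 0.374.

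Genes of cycling cells moved in the same samples. Of 16 tested, 13 (81.25%) were higher in PD1hi than in Tconv, 3 (18.75%) higher in PD1hi than in Treg and 12 (75%) higher in Treg than in Tconv, with 0 lower. Among all genes, 14.2%, 8.16% and 8.73% were higher. The summed level of the 16 was 21415 to 29972 in PD1hi, 18478 to 21660 in Treg and 12518 to 14340 in Tconv, and in each population experiment 3 had the highest sum, as it had the highest Ezh2. The part of cycling cells in the level of Ezh2 or Uhrf1 was not tested.

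Of the demethylases of the Polycomb mark, Kdm6b was called and Kdm6a was not. Kdm6b (ENSMUSG00000018476), an inducible enzyme, was at 2204, 2913 and 2411 in PD1hi, 1691, 1698 and 1635 in Treg and 1541, 1898 and 1476 in Tconv. Its lowest PD1hi value exceeded the highest of both other populations. It rose by 0.61 ± 0.15 against Tconv (adjusted p = 0.00851) and by 0.57 ± 0.15 against Treg (adjusted p = 0.0188). The latter was lost without PD1hi of experiment 5 or Treg of experiment 3, 5 or 6 (adjusted p = 0.0506 to 0.079). Its X-linked paralogue Kdm6a was at 2602, 2986 and 2479.8 in PD1hi, 2417, 2760.2 and 2682 in Treg and 2479.7, 1944 and 2342 in Tconv and passed in no comparison (0.26 ± 0.14, 0.04 ± 0.14 and 0.22 ± 0.14), though with equal library totals it passed in PD1hi against Tconv (0.40 ± 0.13, adjusted p = 0.0340). The ratio of Kdm6b to Kdm6a was 0.847 to 0.976 in PD1hi, 0.610 to 0.700 in Treg and 0.621 to 0.976 in Tconv, so that PD1hi lay above Treg in each experiment and overlapped Tconv.

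The partners of Ezh2 in Polycomb complex 2 gave no call: limma called 0 of 9 in each comparison (3, 1 and 0 at an unadjusted p under 0.05 in PD1hi against Tconv, PD1hi against Treg and Treg against Tconv, and 0 with voom in all 3). The core subunit Eed was at 1484, 1032 and 1026 in PD1hi, 1081, 859.6 and 959.8 in Treg and 1312, 956 and 1189.8 in Tconv, and the core subunit Suz12 at 1046, 1008 and 1473 in PD1hi, 1287, 876 and 1011 in Treg and 1033, 878 and 1012 in Tconv, with overlapping values. The median log2 fold change of the 9 partners was 0.34, 0.19 and 0.10 in the 3 comparisons. Of 17 tested genes of Polycomb complex 1, which reads the mark and ubiquitinates a histone, 3 rose and 1 fell in PD1hi against Tconv, 2 rose and 2 fell against Treg, and 4 rose and 0 fell in Treg against Tconv. The share called was 23.5% in each comparison, against 26.1%, 16.5% and 14.4% of all genes.

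The Polycomb complex 1 genes past 2-fold differed in which population was high. Pcgf2, a RING finger subunit, was at 93.3, 82.9 and 117 in PD1hi, 36.8, 54.5 and 30.2 in Treg and 21.3, 16.5 and 15.3 in Tconv. Its level was highest in PD1hi in each experiment and rose by 2.40 ± 0.35 against Tconv and by 1.28 ± 0.35 against Treg (adjusted p = 0.000323 and 0.0269). The latter was lost without PD1hi of experiment 3 or 6 or Treg of experiment 3 or 6, or without the pair of libraries that stood apart (adjusted p = 0.0506 to 0.112). Cbx6, a chromodomain subunit, was at 1309, 1881 and 1782 in PD1hi, 697, 1166 and 749.7 in Treg and 441, 633 and 321 in Tconv. It rose by 1.87 ± 0.27 against Tconv (adjusted p = 0.00025). Cbx7, another chromodomain subunit, was highest in Treg: 1162, 1498 and 2595 in PD1hi, 2767, 4143 and 2901 in Treg and 868, 1402 and 1056 in Tconv. It rose by 1.56 ± 0.28 in Treg against Tconv (adjusted p = 0.00233). Phc3, a Polyhomeotic subunit, was at 1724, 1767 and 2069.9 in PD1hi, 3195, 3517 and 4941 in Treg and 2276, 2107 and 2349 in Tconv. It fell by 1.05 ± 0.17 in PD1hi against Treg (adjusted p = 0.000812).

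Among the 9 Setd methyltransferases, 2 rose and 0 fell in PD1hi against Tconv (Setd3 and Setd5), 2 rose and 0 fell in PD1hi against Treg (Setd3 and Setd4), and limma called 0 in Treg against Tconv (1 at an unadjusted p under 0.05, 0 with voom). The shares called were 22.2%, 22.2% and 0%, against 26.1%, 16.5% and 14.4% of all genes. Setd3, known as the histidine methyltransferase of actin, was at 1313, 1480.2 and 1602 in PD1hi, 914, 854 and 834 in Treg and 888, 992 and 737 in Tconv. PD1hi exceeded both other populations in every experiment, and the rise was 0.75 ± 0.15 against Tconv (adjusted p = 0.00298) and 0.75 ± 0.15 against Treg (adjusted p = 0.00447). Setd4 was at 535, 561 and 544 in PD1hi, 305, 344 and 272 in Treg and 371, 429 and 452 in Tconv. It rose by 0.84 ± 0.17 against Treg (adjusted p = 0.00417). Setd5 was at 914, 1113 and 1851 in PD1hi, 941, 1061 and 1067 in Treg and 612, 789 and 848 in Tconv, with PD1hi of experiment 6 far above the others, and rose by 0.73 ± 0.23 against Tconv (adjusted p = 0.0366). That call was lost without PD1hi of experiment 5 or 6, Tconv of experiment 3, 5 or 6 or Treg of experiment 3 or 6, or without the pair of libraries that stood apart, and in a fit of the 2 populations alone (adjusted p = 0.0511 to 0.15).

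Setd2, the enzyme of the methyl mark along transcribed genes, was at 2551, 2536 and 2348 in PD1hi, 2150.1, 2529 and 2617 in Treg and 2113, 1966 and 2379.5 in Tconv, with no call (0.21 ± 0.13, 0.03 ± 0.13 and 0.17 ± 0.13). Setdb1, which methylates histones at silenced repeats, was at 1368, 1457 and 1161 in PD1hi, 1251, 1478 and 1735 in Treg and 1381, 1356 and 1714 in Tconv, also with no call (-0.16 ± 0.16, -0.16 ± 0.16 and -0.00 ± 0.16). Its relative Setdb2 differed by -0.65 ± 0.24 in PD1hi and by -0.60 ± 0.24 in Treg, each against Tconv (adjusted p = 0.0633 and 0.133). Both differences passed in some alternatives. The first did so, for example, without PD1hi of experiment 5 (adjusted p = 0.0159). The second did so without PD1hi of experiment 6 (0.0196), without both libraries that stood apart (0.0355) and in a fit of Treg and Tconv alone (0.0211). The remaining 5 Setd genes (Setd1a, Setd1b, Setd6, Setd7 and Setd8) were not called. Of these, Setd7 was at 265, 269.8 and 463 in PD1hi, 459, 449.5 and 427 in Treg and 358, 404 and 422 in Tconv: PD1hi of experiments 3 and 5 lay below all other values and PD1hi of experiment 6 above them. Without PD1hi of experiment 6 it was called lower, by -0.55 ± 0.17 against Tconv and by -0.73 ± 0.17 against Treg.

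Other lysine and arginine methyltransferases came from lists of partners. Of 12 tested genes of the MLL and COMPASS complexes, which methylate histones at active promoters, 0 rose and 1 fell (Mll3) in PD1hi against Tconv, 0 rose and 1 fell against Treg, and 1 rose and 0 fell in Treg against Tconv. The last calls were of Wdr82, a COMPASS subunit, at 812, 847 and 1337 in PD1hi, 3099, 3276 and 2682 in Treg and 1464, 1327 and 1405 in Tconv. Treg held the highest values in every experiment, and the difference was -1.63 ± 0.19 in PD1hi against Treg (adjusted p = 7e-05) and 1.11 ± 0.19 in Treg against Tconv (adjusted p = 0.00154). Of 14 other lysine methyltransferases, 1 rose and 1 fell in each comparison. The riser was Whsc1, which dimethylates histones within genes, at 1237, 1025 and 1419 in PD1hi, 728, 632 and 644 in Treg and 374, 478 and 446 in Tconv. It was highest in PD1hi and lowest in Tconv in each experiment, and rose by 1.50 ± 0.17 in PD1hi against Tconv (adjusted p = 4.5e-05). Of 8 arginine methyltransferases, 2 rose and 2 fell in PD1hi against Tconv, 2 rose and 0 fell against Treg and 0 rose and 1 fell in Treg against Tconv. Prmt3, a ribosomal protein methyltransferase, was at 1707, 1575 and 1671 in PD1hi, 443, 786 and 399 in Treg and 342, 626 and 262 in Tconv. Its PD1hi values varied little between experiments and rose by 2.10 ± 0.31 against Tconv (adjusted p = 0.000331) and by 1.67 ± 0.31 against Treg (adjusted p = 0.00253).

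Of the 13 JmjC demethylases (Kdm2 to Kdm6), 2 rose and 1 fell in PD1hi against Tconv (Kdm2b and Kdm6b higher, Kdm3a lower), 1 rose and 0 fell against Treg (Kdm6b), and 1 rose and 0 fell in Treg against Tconv (Kdm2b). Their median log2 fold change was 0.02, -0.00 and 0.04. The shares called were 23.1%, 7.69% and 7.69%, against 26.1%, 16.5% and 14.4% of all genes. Kdm2b (ENSMUSG00000029475), which brings a Polycomb complex 1 to unmethylated CpG islands, was at 1939, 2488 and 1773 in PD1hi, 1516, 1701 and 1839 in Treg and 1072, 1233 and 1001 in Tconv. All Tconv values lay below all others. It rose by 0.90 ± 0.16 in PD1hi (adjusted p = 0.00125) and by 0.61 ± 0.16 in Treg (adjusted p = 0.0219), each against Tconv. The latter was lost without Tconv of experiment 3 or 6 or Treg of experiment 5 or 6 (adjusted p = 0.0717 to 0.0996).

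Kdm3a, a demethylase of a silencing mark, was at 1959.6, 2070.2 and 1499 in PD1hi, 2227, 2713 and 2624 in Treg and 2746, 2359.6 and 2783 in Tconv. It fell by 0.52 ± 0.15 in PD1hi against Tconv (adjusted p = 0.0257). This was lost without PD1hi of experiment 6 or Tconv of experiment 3 or 6, with equal library totals and with equal upper quartiles (adjusted p = 0.0543 to 0.0999). Against Treg the difference of -0.46 ± 0.15 did not pass (adjusted p = 0.0645), and it did without the second Treg library of experiment 3 (0.0202) and without both libraries that stood apart (0.0300). Kdm5a, a demethylase of the promoter mark, was at 11237, 10602 and 5667 in PD1hi, 10216, 11472 and 12046 in Treg and 12442, 10918 and 13409 in Tconv. PD1hi of experiment 6 lay far below the other 8 values, and the differences of -0.48 ± 0.22, -0.35 ± 0.22 and -0.12 ± 0.22 did not pass. Of the amine oxidase demethylases, Kdm1a (LSD1) was at 627, 576 and 1061 in PD1hi, 829.9, 596 and 439 in Treg and 574, 519.6 and 620.1 in Tconv, high in that same PD1hi library. Neither Kdm1a (0.35 ± 0.26, 0.27 ± 0.26 and 0.08 ± 0.26) nor Kdm1b was called by limma or voom, and 0 of the 2 had an unadjusted p under 0.05. The 8 JmjC genes not yet given (Kdm2a, Kdm3b, Kdm4a, Kdm4b, Kdm4c, Kdm4d, Kdm5b and Kdm5c) were not called in any comparison. Of these, Kdm3b was called lower in PD1hi than in Treg without PD1hi of experiment 6 (-0.54 ± 0.13, adjusted p = 0.0107) and without both libraries that stood apart (-0.45 ± 0.13, adjusted p = 0.0323), and higher in Treg than in Tconv without the former (0.43 ± 0.11, adjusted p = 0.0191). Of 10 tested relatives of the JmjC family, 0 rose and 1 fell in PD1hi against Tconv (Mina), 0 rose and 2 fell against Treg (Jmjd1c and Mina), and 0 rose and 1 fell in Treg against Tconv (Jmjd6).

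Among the Hdac genes, the calls lay in class IIa, whose members shuttle between cytoplasm and nucleus and bind MEF2 factors. Of its 5 entries, 2 rose and 0 fell in PD1hi against Tconv (Hdac7 and Hdac9), 3 rose and 1 fell against Treg (Hdac4, Hdac5 and Hdac7 higher, Hdac9 lower) and 1 rose and 0 fell in Treg against Tconv (Hdac9). Hdac9 (ENSMUSG00000004698) was at 90.2, 68.7 and 111 in PD1hi, 234, 262 and 214 in Treg and 14.9, 19.5 and 17.5 in Tconv. Treg was highest, PD1hi between and Tconv lowest in each experiment, with no overlap. It rose by 3.70 ± 0.29 in Treg against Tconv (adjusted p = 5.46e-06) and by 2.29 ± 0.29 in PD1hi against Tconv (adjusted p = 9.63e-05), and fell by 1.41 ± 0.29 in PD1hi against Treg (adjusted p = 0.00456). The last call was lost with all 13 libraries entered under duplicateCorrelation (adjusted p = 0.0857).

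A list of B cell genes had the same order of populations as Hdac9, with sums of 6883 to 9408 in Treg, 4254 to 5257 in PD1hi and 1001 to 4118 in Tconv. Most of it was Cd74 (mean 7356 in Treg), while Cd22 was highest in PD1hi. Of its 5 tested genes, 2 were higher and 0 lower in PD1hi than in Tconv, 1 higher and 2 lower in PD1hi than in Treg, and 2 higher and 0 lower in Treg than in Tconv. Plasma cell genes summed to the most in Treg on average too, with sums of 6649 to 9580 in Treg, 3904 to 7326 in PD1hi and 2581 to 3246 in Tconv. Of 4, 2 were higher in PD1hi than in Tconv, 1 lower in PD1hi than in Treg (Prdm1) and 3 higher in Treg than in Tconv. The part of these lists in the level of Hdac9 was not tested.

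Hdac7 (ENSMUSG00000022475), a class IIa enzyme known for its role in thymocytes, was at 2457, 2695 and 3717 in PD1hi, 2072, 1947 and 1779.6 in Treg and 1577, 2032 and 1534 in Tconv. Every PD1hi value exceeded all others, and the rise was 0.77 ± 0.17 against Tconv (adjusted p = 0.00586) and 0.59 ± 0.17 against Treg (adjusted p = 0.0373). The call against Treg was lost without PD1hi of experiment 5 or 6, Tconv of experiment 3 or 6 or Treg of experiment 3, 5 or 6, and in a fit of the 2 populations alone (adjusted p = 0.0503 to 0.131). Hdac5 (ENSMUSG00000008855) was at 296, 387 and 594 in PD1hi, 135, 174 and 125 in Treg and 205, 326 and 144 in Tconv. PD1hi lay above all Treg values and overlapped Tconv, where experiment 5 was high. It rose by 1.50 ± 0.33 against Treg (adjusted p = 0.00668), and the difference of 0.94 ± 0.33 from Tconv did not pass (adjusted p = 0.053). It did pass in 7 alternatives, among them those without PD1hi of experiment 3 (adjusted p = 0.0290) and without Tconv of experiment 5 (0.0165).

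The table lists Hdac4 under 2 IDs, and which transcripts each counts is not given in the sources used here. Under ENSMUSG00000026313 it was at 1039, 1314 and 1779 in PD1hi, 719, 883 and 899 in Treg and 809, 1048 and 858 in Tconv. It rose by 0.70 ± 0.20 in PD1hi against Treg (adjusted p = 0.0335). That call was lost without PD1hi of experiment 5 or 6, Tconv of experiment 6 or Treg of experiment 3, 5 or 6, or without the pair of libraries that stood apart, and in a fit of the 2 populations alone (adjusted p = 0.0501 to 0.121). Against Tconv the difference of 0.58 ± 0.20 did not pass (adjusted p = 0.0527). It did pass in several alternatives, among them those without PD1hi of experiment 3 (adjusted p = 0.0146), Tconv of experiment 5 (0.0477) or the second Treg library of experiment 3 (0.0431). Under ENSMUSG00000073617 it was at 4006, 4179.9 and 2539.6 in PD1hi, 2499, 2979 and 3257 in Treg and 3591, 3497 and 3823 in Tconv, with no call (-0.06 ± 0.19, 0.27 ± 0.19 and -0.33 ± 0.19), and was called higher in PD1hi than in Treg without PD1hi of experiment 6 (0.50 ± 0.13, adjusted p = 0.0198). In PD1hi of experiment 6 the first ID had its highest value and the second its lowest PD1hi value, so the level of Hdac4 as a gene is uncertain here.

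None of the other Hdac genes was called. Hdac1, a core enzyme of the NuRD and Sin3 complexes, was at 5126, 4574 and 4043 in PD1hi, 4447, 4044 and 4439 in Treg and 4840.1, 4195 and 4672 in Tconv. Hdac3, the enzyme of the NCoR complexes, was at 1869, 1614 and 1625 in PD1hi, 1393, 1693 and 1512 in Treg and 1415, 1451 and 1485 in Tconv. All values of Hdac1 overlapped, with differences of -0.00 ± 0.13, 0.08 ± 0.13 and -0.08 ± 0.13, and those of Hdac3 were 0.23 ± 0.13, 0.15 ± 0.13 and 0.08 ± 0.13. Limma called 0 of the 4 class I enzymes (Hdac1, Hdac2, Hdac3 and Hdac8), 0 of the 2 of class IIb (Hdac6 and Hdac10) and 0 of 1 of class IV (Hdac11) in any comparison, with 0 at an unadjusted p under 0.05 and 0 with voom. Of 21 tested corepressor partners, 3 rose and 0 fell in PD1hi against Tconv (Tbl1xr1, Mbd3 and Nrip1), 0 rose and 1 fell against Treg (Mef2d) and 0 rose and 1 fell in Treg against Tconv (Tbl1x), none by 2-fold. Of 12 acetyltransferases, which add what deacetylases remove, 1 rose and 1 fell in PD1hi against Tconv (Ncoa1 and Myst1), 0 rose and 2 fell against Treg (Kat2b and Ncoa3) and 1 rose and 0 fell in Treg against Tconv (Ncoa3). Of the 3 BET readers of acetylated histones, Brd3 fell in PD1hi against Tconv, and limma called 0 in PD1hi against Treg and 0 in Treg against Tconv (0 and 1 at an unadjusted p under 0.05, 0 with voom). The shares called were 14.3%, 4.76% and 4.76% of the corepressor partners, 16.7%, 16.7% and 8.33% of the acetyltransferases and 33.3%, 0% and 0% of the BET readers. Among all genes they were 26.1%, 16.5% and 14.4%.

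Sirtuins are deacetylases that need NAD. Of 7, 2 rose and 0 fell in PD1hi against Tconv, as against Treg (Sirt2 and Sirt3), and limma called 0 in Treg against Tconv (0 at an unadjusted p under 0.05, 0 with voom). The shares called were 28.6%, 28.6% and 0%, against 26.1%, 16.5% and 14.4% of all genes. Sirt3, the main mitochondrial deacetylase, was at 224, 245 and 226 in PD1hi, 131, 103 and 144 in Treg and 130.0, 152 and 145 in Tconv. PD1hi lay above both other populations in every experiment, by 0.70 ± 0.22 against Tconv (adjusted p = 0.031) and 0.88 ± 0.22 against Treg (adjusted p = 0.0142). The first was lost without PD1hi of experiment 3 or 5 or Tconv of experiment 3, 5 or 6 (adjusted p = 0.0562 to 0.109), and the second without PD1hi of experiment 5 or Treg of experiment 5 (adjusted p = 0.0515 to 0.0535). Sirt2, largely cytoplasmic, was at 2819, 2899 and 3392 in PD1hi, 2087, 2349 and 2251 in Treg and 1975, 2224 and 2109 in Tconv. It rose by 0.53 ± 0.13 against Tconv (adjusted p = 0.00849) and 0.44 ± 0.13 against Treg (adjusted p = 0.0323). The latter was lost without PD1hi of experiment 5 or 6, Tconv of experiment 3 or 6 or Treg of experiment 3, 5 or 6, or without the pair of libraries that stood apart, and in a fit of the 2 populations alone (adjusted p = 0.0517 to 0.104). Sirt1, a nuclear sirtuin that acts on transcription factors, was at 313, 196 and 448 in PD1hi, 548, 438 and 387 in Treg and 316, 267 and 358 in Tconv. PD1hi of experiment 6 was the highest PD1hi value, and the differences of -0.05 ± 0.28, -0.58 ± 0.28 and 0.54 ± 0.28 did not pass. Without that library Sirt1 was called lower in PD1hi than in Treg (-0.87 ± 0.24, adjusted p = 0.0274), and likewise without both libraries that stood apart (-0.78 ± 0.22, adjusted p = 0.0311).

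Of the 10 Chd remodellers, 1 rose and 2 fell in PD1hi against Tconv (Chd9 higher, Chd2 and Chd7 lower), 1 rose and 0 fell against Treg (Chd1), and 0 rose and 1 fell in Treg against Tconv (Chd7). The shares called were 30%, 10% and 10%, against 26.1%, 16.5% and 14.4% of all genes. Chd7 (ENSMUSG00000041235), an ATPase found at enhancers, was at 983, 1473 and 882 in PD1hi, 948, 1006 and 1098 in Treg and 2059.9, 2363 and 2101 in Tconv. PD1hi and Treg overlapped and lay below every Tconv value. It fell by 1.10 ± 0.18 in Treg (adjusted p = 0.00154) and by 1.0 ± 0.18 in PD1hi (adjusted p = 0.00155), each against Tconv, and PD1hi differed from Treg by 0.10 ± 0.18 (adjusted p = 0.796). Both falls were kept in all 20 alternatives.

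Chd2 was at 4041, 4144 and 3313 in PD1hi, 4857, 4855 and 6123 in Treg and 6157, 5507 and 6964 in Tconv. It fell by 0.70 ± 0.15 in PD1hi against Tconv (adjusted p = 0.00413). Against Treg it differed by -0.46 ± 0.15 (adjusted p = 0.0553), which passed without the second Treg library of experiment 3 (-0.54 ± 0.14, adjusted p = 0.0224) and without both libraries that stood apart (-0.44 ± 0.13, adjusted p = 0.0417). Chd9 was at 2206, 2025 and 1661 in PD1hi, 1508, 1384 and 1945 in Treg and 1261, 1217 and 1404 in Tconv. It rose by 0.59 ± 0.16 against Tconv (adjusted p = 0.018). This was lost without PD1hi of experiment 3 or 5 or Tconv of experiment 3 or 5 (adjusted p = 0.0548 to 0.0642). Chd1, which binds the methyl mark of active promoters, was at 1837, 1795 and 1945 in PD1hi, 1313, 1145 and 1471 in Treg and 1481, 1261 and 1494 in Tconv. It rose by 0.51 ± 0.14 against Treg (adjusted p = 0.026). This was lost without PD1hi of experiment 3 or 5 or Treg of experiment 3 or 5, and in a fit of the 2 populations alone (adjusted p = 0.0541 to 0.11). The difference of Chd1 from Tconv, 0.40 ± 0.14, did not pass (adjusted p = 0.0550), though the values did not overlap. It did pass in some alternatives, among them equal library totals (adjusted p = 0.0125) and equal upper quartiles (0.0414). Chd4, the ATPase of NuRD, was at 4432, 5599 and 5653 in PD1hi, 4523, 4015 and 4321 in Treg and 5079.9, 4639.8 and 4420.4 in Tconv. The PD1hi values of experiments 5 and 6 exceeded the rest, and the differences of 0.14 ± 0.13, 0.28 ± 0.13 and -0.14 ± 0.13 did not pass. The remaining 5 (Chd1l, Chd3, Chd5, Chd6 and Chd8) were not called in any comparison.

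SWI/SNF complexes run on either of the ATPases, Smarca2 (BRM) or Smarca4 (BRG1). Smarca2 (ENSMUSG00000024921) was at 1181, 1475 and 1445 in PD1hi, 1423, 1761 and 1587 in Treg and 2185, 2157 and 2117 in Tconv. Every Tconv value lay above all others, and PD1hi and Treg overlapped. It fell by 0.66 ± 0.14 in PD1hi against Tconv (adjusted p = 0.00379). The difference of Treg from Tconv, -0.44 ± 0.14, did not pass (adjusted p = 0.0553). With the experiment as a block, which pairs Treg and Tconv samples, it passed (adjusted p = 0.0378). It also passed in 7 other alternatives (adjusted p = 0.0183 to 0.0471). These were the fits without PD1hi of experiment 3, without PD1hi of experiment 6, without the second Treg library of experiment 3 and without both libraries that stood apart, the fit of Treg and Tconv alone, duplicateCorrelation and voom. Smarca4 was at 1647, 2421 and 2315 in PD1hi, 1462, 2068 and 1452 in Treg and 1542, 2253 and 1274 in Tconv, highest in experiment 5 in each population, with no call (0.35 ± 0.23, 0.36 ± 0.23 and -0.00 ± 0.23). The ratio of Smarca2 to Smarca4 was 0.609 to 0.717 in PD1hi, 0.852 to 1.09 in Treg and 0.957 to 1.66 in Tconv, so PD1hi lay below both others and those overlapped.

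Of the 11 SWI/SNF and related Smarc genes, 2 rose and 1 fell in PD1hi against Tconv (Smarcb1 and Smarcc1 higher, Smarca2 lower), 1 rose and 0 fell against Treg (Smarcb1), and limma called 0 in Treg against Tconv (1 at an unadjusted p under 0.05 and 1 with voom, Smarca2 in each). Smarcb1, a core subunit, was at 3077, 2860.4 and 3217 in PD1hi, 2215, 1927 and 2217 in Treg and 2024, 2261 and 2293 in Tconv. PD1hi exceeded both other populations in every experiment. It rose by 0.48 ± 0.12 against Tconv (adjusted p = 0.0134) and 0.53 ± 0.12 against Treg (adjusted p = 0.0116), calls lost without Tconv of experiment 3 (adjusted p = 0.0709) and without Treg of experiment 5 (adjusted p = 0.0567). Smarcc1, a scaffold subunit, was at 1123, 1028 and 1260.0 in PD1hi, 989.7, 782 and 823 in Treg and 700.1, 742 and 721 in Tconv. It rose by 0.65 ± 0.15 against Tconv (adjusted p = 0.00621). Of 16 tested BAF and PBAF partners, 0 rose and 4 fell in PD1hi against Tconv (Arid1a, Arid2, Ss18 and Bcl11b), 0 were called against Treg (2 at an unadjusted p under 0.05, 0 with voom), and 0 rose and 1 fell in Treg against Tconv (Arid2). The shares called were 27.3%, 9.09% and 0% of the Smarc genes and 25%, 0% and 6.25% of the partners. Among all genes they were 26.1%, 16.5% and 14.4%.

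The ISWI ATPase Smarca5 was at 1569, 1374 and 2337 in PD1hi, 1702, 1136 and 1215 in Treg and 1385, 968 and 1139 in Tconv, with PD1hi of experiment 6 highest, and differed from Tconv by 0.57 ± 0.22 in PD1hi (adjusted p = 0.084). It passed without PD1hi of experiment 5 (adjusted p = 0.0481) and with equal library totals (0.0454). The pseudogene Smarca5-ps, whose reads can be shared with Smarca5, was at 53.3, 40.4 and 89.1 in PD1hi, 53.9, 49.8 and 32.5 in Treg and 30.9, 25.7 and 21.9 in Tconv, also highest in that library, and differed by 1.12 ± 0.39 (adjusted p = 0.0518), so its level is uncertain. Of 18 tested partners of ISWI, INO80 and related complexes, 2 rose and 1 fell in PD1hi against Tconv (Baz1a and Hells higher, Daxx lower), 1 rose and 0 fell against Treg (Baz1a) and 0 rose and 1 fell in Treg against Tconv (Daxx). The shares called were 16.7%, 5.56% and 5.56%, against 26.1%, 16.5% and 14.4% of all genes. Baz1a, a partner of Smarca5, was at 2543, 2694 and 2787 in PD1hi, 1475, 1141 and 1289.8 in Treg and 1358, 1187 and 1316 in Tconv. PD1hi lay above all other values in each experiment, by 1.06 ± 0.14 against Tconv (adjusted p = 0.000123) and 1.04 ± 0.14 against Treg (adjusted p = 0.000194). Over the 155 tested genes of all partner lists together, 15 rose and 13 fell in PD1hi against Tconv (18.1%), 7 rose and 9 fell against Treg (10.3%) and 8 rose and 6 fell in Treg against Tconv (9.03%), against 26.1%, 16.5% and 14.4% of all genes.

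**Figure D3:**
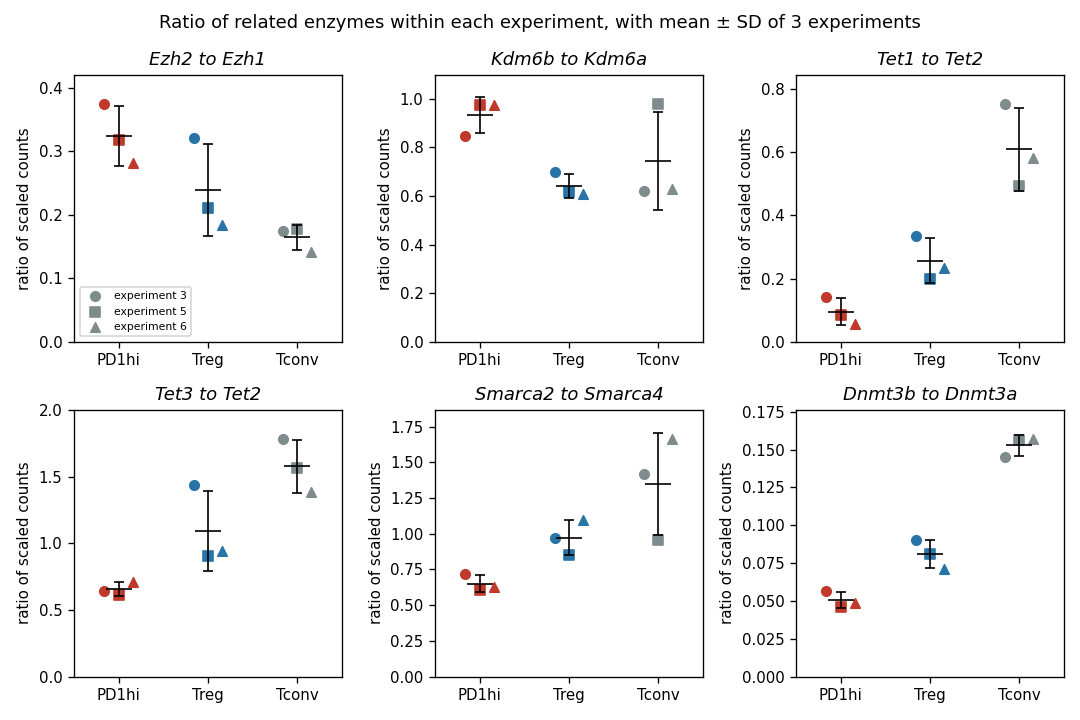
Ratio of scaled counts of related enzymes within each experiment (y axis, from 0) in PD1hi, Treg and Tconv, with the mean ± SD of 3 experiments. The mean Tet1 to Tet2, Tet3 to Tet2 and Dnmt3b to Dnmt3a ratios are lowest in PD1hi (0.0948, 0.654 and 0.0506) and highest in Tconv (0.609, 1.58 and 0.153). The mean Ezh2 to Ezh1 ratio is highest in PD1hi (0.324). Treg overlaps Tconv in the Tet3 to Tet2 ratio and PD1hi in the Ezh2 to Ezh1 ratio.

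The genes also varied within populations. PD1hi of experiment 6 differed from the mean of the other PD1hi values by a median of 0.41 on the log2 scale over the 76 genes, against 0.14 to 0.27 for the other 8 values, and over all genes by 0.43 against 0.19 to 0.32. The second Treg library of experiment 3 differed from the first by a median of 0.44 over the 76 genes, against 0.11 to 0.15 in the other 3 pairs titled replicate. The deviations of these libraries, from different experiments and populations, ran the same way in 57 of 76 genes (75%; Pearson r = 0.789, Spearman rho = 0.756) and in 66.8% of all genes (r = 0.293, rho = 0.403), each across genes, which share their library and are not independent replicates. Chd5, Setd1a and Smarcd2 were high in both, and Smarcad1, Kdm5a, Kdm4c and Setdb2 low in both. Over the 75 genes with a transcript length, the deviation of PD1hi of experiment 6 had a Spearman correlation of 0.0794 with length and 0.381 with GC content, and that of the second Treg library 0.0373 and 0.175. Over the 13447 tested genes with a length, these were -0.113 and 0.306 for the former and -0.239 and 0.0679 for the latter. The part of length and GC content in these deviations was not tested further.

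**Figure D4:**
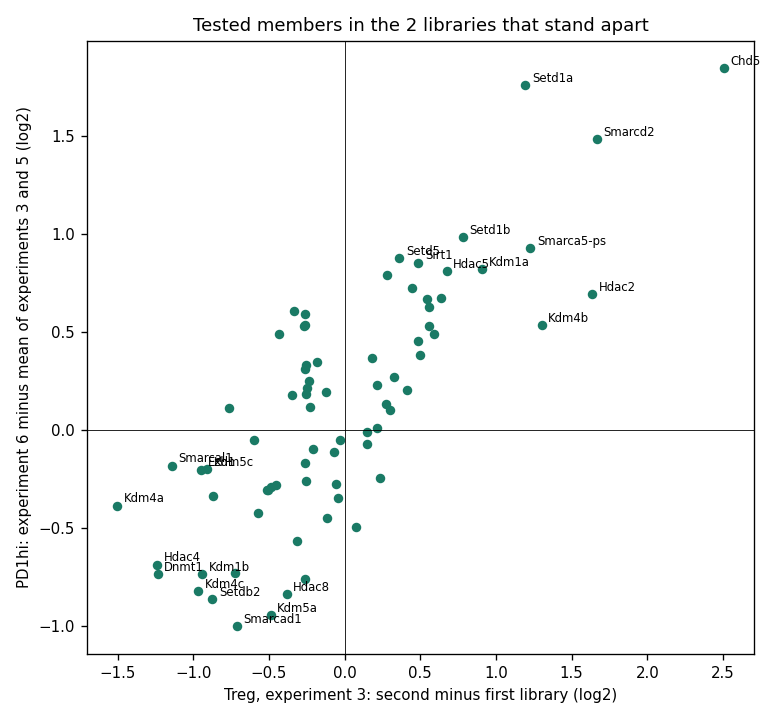
Each point is 1 of the 76 tested genes, with the log2 difference of the second from the first Treg library of experiment 3 (x axis) and of PD1hi of experiment 6 from the mean of experiments 3 and 5 (y axis). The points run from low in both (Kdm5a, Smarcad1) to high in both (Chd5, Setd1a, Smarcd2), with 57 of 76 on the same side of 0 on both axes.

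A second pattern within populations followed the experiment. Chd3, an ATPase of NuRD, was at 1342, 2258 and 2870.1 in PD1hi, 2549, 4444 and 2699.7 in Treg and 1876, 3139 and 2068 in Tconv. Smarcc2, a scaffold subunit of SWI/SNF, was at 2110.2, 3872 and 2265 in PD1hi, 1580.4, 3004 and 1958 in Treg and 1952, 2882 and 1627 in Tconv. Kdm4a was at 603, 1157 and 638 in PD1hi, 517, 859 and 592 in Treg and 466, 649.7 and 416 in Tconv. In Treg and Tconv, experiment 5 was highest for all 3 genes, as it was in PD1hi for Smarcc2 and Kdm4a but not for Chd3, which was highest in PD1hi of experiment 6. These genes were picked after their values were seen, and none of them was called in the fit without a block.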

How the data were processed

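RNA of sorted splenic CD4 T cells was extracted with Trizol, depleted of ribosomal RNA with a low-input RiboMinus kit and made into libraries with an Ion Total RNA-seq kit, per the labels' protocols. The submitters' processing notes name Picard, HTSeq 0.5.4, limma and the builds mm9, hg19 and GRCh37. No source used here gives the aligner, the use of each build or the strand setting. Reads of overlapping or antisense genes cannot be told apart. The deposited signal values are gene counts that the authors divided by a size factor per library, plus 1. This was read from the values, of which all gave whole reads within 0.001 reads once 1 was subtracted. Levels here are those values less 1.

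Libraries of 1 experiment and population were averaged, and the 9 resulting values were fitted together with limma 3.58.1 (R 4.3.3) on log2(scaled count + 1), with a mean-variance trend. Tests were 2-sided and adjusted by Benjamini-Hochberg over the 14177 of 18649 genes with a mean of at least 10. Fold changes on this scale understate the change of low genes. Tables were handled with Python 3.11.15, pandas 2.3.3, numpy 2.4.6 and scipy 1.17.1, and the fit was tested on simulated data. In simulated PD1hi against Tconv it called 6% of 1.5-fold, 38% of 2-fold and 70% of 4-fold rises and 34.7% of falls to 0.5-fold. Of 14230 unchanged genes it called 5. The simulation held 49 or 50 tested genes at each fold. In the data, 26.1% of all tested genes were called in PD1hi against Tconv. The adjustment is stricter where fewer genes change, so the simulated rates are not those of the data. A gene that was not called is still not shown to be unchanged. An exact permutation test of 3 against 3 values cannot go below p = 0.1 and was not used. Counting error at 15971126 to 24216463 reads is small for most of these genes, and the number of samples limits the precision.

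The experiment numbers of the labels were checked for pairing by the correlation, over genes, of deviations from the population means. They pair the Treg and Tconv samples (r = 0.218 to 0.298, each of 3 over 0.1, and all 6 values correlated best with their own experiment), but by the same measure neither PD1hi with Treg (r = -0.07 to 0.169) nor PD1hi with Tconv (0.0187 to 0.197).

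The members, the partner and marker lists and the alternatives were chosen with earlier results of these data known. Genes are given with values of every experiment where they passed the test with at least a 2-fold change, for 22 further or overlapping genes picked for their known roles, and for called genes of each class. Of the partner lists, only genes past 2-fold are given with values. Eed, Suz12, Setd7, Setdb2, Kdm3b, the second Hdac4 ID, Smarca5 and its pseudogene, and the genes of the closing paragraph of the results were added after their values were seen. The alternatives were another pseudocount (5), a minimum mean of 50 or none, equal library totals or upper quartiles, voom on the recovered reads, all 13 libraries under duplicateCorrelation, the experiment as a block, the compared populations alone, each value left out in turn, and the second Treg library of experiment 3 left out. One more, without that library and PD1hi of experiment 6, was chosen after seeing the data, as was the repeat of the enzyme ratios without the former.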

Additional observations from a re-analysis of the deposited data

Results flagged for a closer look

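Of 48 groups of 5 libraries examined for a library far from the others, 2 were found, and chance gives about 1 in 20. Both concern the second Treg library of experiment 3. Kdm5a, a demethylase of the promoter mark, was at 8501 scaled counts there and at 11466 to 12627 in the other 4 Treg libraries, a gap of 0.719 of the whole range. Kdm6a, a demethylase of the Polycomb mark, was at 2196 there and at 2637 to 2760.2 in the others, a gap of 0.782 of the range. Neither gene was called in any comparison of populations.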

How the results depend on the processing

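Of the 37 calls, 21 were kept in all 20 alternatives (14 of 19 in PD1hi against Tconv, 5 of 14 in PD1hi against Treg, 2 of 4 in Treg against Tconv), and 16 were lost in at least 1. No called difference changed sign. The genes higher in PD1hi than in Tconv numbered 20 with equal library totals, and those higher than in Treg numbered 6 in a fit of the 2 populations alone. Those lower in Treg than in Tconv numbered 5 under duplicateCorrelation and 5 in a fit of the 2 populations alone. Leaving out libraries gave 8 to 13 higher and 6 to 8 lower genes in PD1hi against Tconv, 3 to 11 and 3 to 9 against Treg, and 1 to 3 and 1 to 5 in Treg against Tconv. Leaving out a value of the population not compared left the fold changes as they were and altered only the test. In PD1hi against Treg without Tconv of experiment 3, Ezh2 stayed at 0.593, Hdac7 at 0.592 and Sirt2 at 0.443. The cause of the other changes was not tested, and fits with fewer samples have fewer degrees of freedom.

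For PD1hi with Treg and PD1hi with Tconv, the correlation of deviations did not show pairing by experiment number. Of 3 same-experiment correlations 1 and 2 exceeded 0.1, and 4 and 3 of 6 values correlated best with their own experiment. The lowest were those of experiment 6 (-0.07 with Treg and 0.0187 with Tconv), whose PD1hi library stood apart. The measure therefore cannot tell whether these samples share more than an experiment number. With the experiment as a replicate block, 16 genes were higher and 8 lower in PD1hi against Tconv, 11 and 3 against Treg, and 2 and 3 in Treg against Tconv. With it Hdac7 did not pass in PD1hi against Treg (limma, adjusted p = 0.0518), while Chd1, Dnmt3a, Hdac4 (the first ID), Kdm4a (adjusted p = 0.0136) and Setdb2 (adjusted p = 0.0440) passed in PD1hi against Tconv, and Smarcd3 in PD1hi against Treg. In Treg against Tconv, where the numbers pair the samples, it added Smarca2 and changed no other call among the 76 genes.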
